A study of Mus musculus with 13 samples.

Results

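Hippocampal transcripts were described in the 4 libraries with the highest and the 4 with the lowest level of 5 microglial plaque-response genes, out of 13 libraries from 5xFAD mice. The libraries were ordered by the mean of log2(CPM + 1), where CPM is the count scaled to a library total of 1000000, over Trem2, Tyrobp, Cst7, Clec7a and Itgax. Treatment played no part in the choice. The high side held saline 38, saline 32, Aducanumab 58 and saline 18, and the low side held Aducanumab 50, Aducanumab 56, ACLP-NT 53 and ACLP-NT 27. The other 5 libraries, Aducanumab 24, ACLP-NT 49, ACLP-NT 17, saline 19 and ACLP-NT 55, lay between.

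All mice were 5xFAD, a line with mutant human transgenes of familial Alzheimer's disease, among them APP, under the neuronal Thy1 promoter. Each library is poly(A)-selected RNA from the whole dissected hippocampus of an animal number given in the labels. Saline was given to 4 mice, Aducanumab, an antibody to aggregated amyloid beta, to 4, and ACLP-NT, a code name, to 5. The title speaks of a nanomedicine for microglial lysosomes. No wild-type group is among the libraries, and the sources used here do not give dose, treatment time, age or sex.

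Microglia are the resident macrophages of the brain. TREM2 is their surface receptor for lipids and lipoproteins, and it signals through the adaptor TYROBP to the kinase SYK. Around amyloid plaques, microglia that receive this signal take up a state known as disease-associated microglia, in which lysosomal, lipid and phagocytic genes are induced and many genes of resting microglia are lowered. Of the other ranking genes, Cst7 encodes cystatin F, an inhibitor of lysosomal cathepsins, Clec7a the beta-glucan receptor dectin-1, and Itgax the integrin CD11c, all markers of that state.

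To show regulatory motifs at some genes higher in the high libraries, 4 promoters chosen because they hold a match are printed. Each runs from 250 bases before to 50 bases after the start of transcription (RefSeq, GRCm38.p6, 5′ to 3′ on the strand of the gene). The first pair holds the letters GAGGAAGT, a core of sites bound by PU.1, the master transcription factor of macrophages and microglia, and the second pair holds GAAANNGAAA, a core of the interferon-stimulated response element. Capitals mark the match, on either strand, and the genes were picked after their values were seen. Ctss, at chr3:95526536-95526835 on the plus strand, encodes cathepsin S, a lysosomal protease of antigen-presenting cells, and Vav1, at chr17:57278850-57279149 on the plus strand, a signalling protein downstream of SYK. Oas1a, at chr5:120907476-120907775 on the minus strand, encodes an antiviral sensor of double-stranded RNA, and Ifit1, at chr19:34640639-34640938 on the plus strand, an antiviral RNA-binding protein. The run of capitals in Oas1a is 2 overlapping matches, and Ifit1 holds 2 separate matches.
Ctss: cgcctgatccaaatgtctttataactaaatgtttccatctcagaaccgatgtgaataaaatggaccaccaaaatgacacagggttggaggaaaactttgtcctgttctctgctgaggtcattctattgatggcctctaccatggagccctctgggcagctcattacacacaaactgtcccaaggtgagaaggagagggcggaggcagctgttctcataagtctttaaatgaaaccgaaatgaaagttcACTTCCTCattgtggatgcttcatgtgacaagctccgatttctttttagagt
Vav1: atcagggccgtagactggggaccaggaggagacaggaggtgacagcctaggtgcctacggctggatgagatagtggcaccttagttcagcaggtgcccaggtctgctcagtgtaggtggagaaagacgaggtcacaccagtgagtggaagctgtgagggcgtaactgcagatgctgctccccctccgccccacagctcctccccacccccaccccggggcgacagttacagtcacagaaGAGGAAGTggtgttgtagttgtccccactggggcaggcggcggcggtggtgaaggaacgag
Oas1a: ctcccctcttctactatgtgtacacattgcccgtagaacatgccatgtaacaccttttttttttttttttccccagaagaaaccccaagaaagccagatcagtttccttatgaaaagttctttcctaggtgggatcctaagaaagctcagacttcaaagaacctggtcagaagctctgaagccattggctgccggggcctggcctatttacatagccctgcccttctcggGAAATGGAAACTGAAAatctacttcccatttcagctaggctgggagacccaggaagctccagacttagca
Ifit1: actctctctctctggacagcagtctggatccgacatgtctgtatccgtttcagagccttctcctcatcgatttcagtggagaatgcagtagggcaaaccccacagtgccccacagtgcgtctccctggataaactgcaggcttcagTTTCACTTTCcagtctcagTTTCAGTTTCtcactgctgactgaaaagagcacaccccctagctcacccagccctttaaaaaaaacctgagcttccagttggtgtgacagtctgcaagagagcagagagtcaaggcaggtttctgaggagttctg

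Promoter windows were found for 236 of the genes higher in the high libraries and for 13764 of all genes tested. Genes were counted, and a gene with several windows counted once, as holding a motif if any of its windows did. The PU.1 letters were found for 27 of the 236 genes (11.4%). The share was 3.52% of the tested genes with a window and 3.69% of all 27025 genes with a window. The interferon letters were found for 24 of the 236 (10.2%), against 3.82% and 3.99%. The letters CACGTG, an E-box bound among others by the lysosomal regulator TFEB, were found for 21 (8.90%), against 10.6% and 8.09%. Motifs were searched on both strands and separately, so a gene can count for several, as Ctss does for PU.1 and the interferon element. These shares describe genes with the letters in a window, and no test was made.

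The ranking mean was 5.50 in saline 38, 5.44 in saline 32, 5.28 in Aducanumab 58 and 5.20 in saline 18. On the low side it was 4.70 in Aducanumab 50, 4.62 in Aducanumab 56, 4.25 in ACLP-NT 53 and 4.11 in ACLP-NT 27. Just outside these sides lay Aducanumab 24 at 5.12, next to the high side, and ACLP-NT 55 at 4.93, next to the low side, so the step into the high side was the smaller. Trem2 itself was at 83.7 to 103 CPM in the high, 67.9 to 78.0 CPM in the middle and 42.5 to 60.5 CPM in the low libraries. Cst7 was at 40.6 to 50.1, 31.6 to 36.3 and 15.9 to 22.97 CPM. Because these values chose the libraries, they are no result, and since all other genes were measured in the same RNA, every difference between the sides below is a description without a test.

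**Figure D1:**
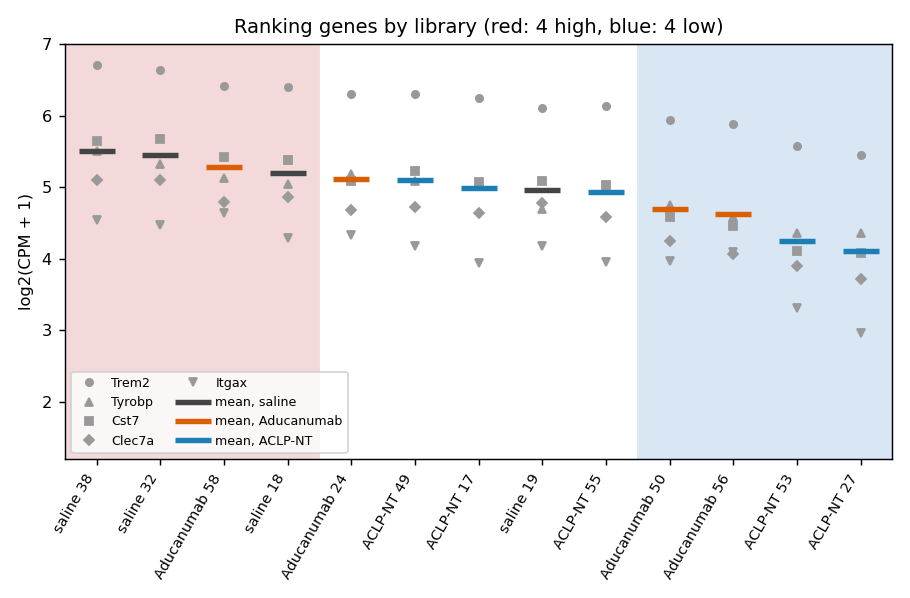
log2(CPM + 1) of the 5 ranking genes (grey symbols) and their mean (bars, coloured by treatment) in the 13 libraries, in falling order of the mean. Saline libraries take 3 of the 4 high places and none of the low ones, and the means run from 5.50 to 4.11.

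The sides were unequal in treatment: 3 saline and 1 Aducanumab library were high, and 2 Aducanumab and 2 ACLP-NT libraries were low. Across the 8 libraries, treatment and side therefore cannot be told apart. Only Aducanumab had libraries on both sides, and values within Aducanumab (58 against 50 and 56) and within ACLP-NT (17, 49 and 55 against 27 and 53) are given beside the lists, though these libraries were ordered by the same ranking. Library totals ran from 53642019 to 69734713 counts, and 22060 genes other than the ranking genes passed a filter on low counts, 7013 of them with a mean count under 100. In bulk tissue, fewer cells of a type and less RNA per cell cannot be told apart. All 21 listed genes of the dentate gyrus and CA fields passed the filter, with Calb1, calbindin of dentate granule cells, at 104 to 141 CPM. No other brain region was among the libraries, so these levels cannot mark a library as hippocampus. Markers of some tissue next to the hippocampus varied far more than Calb1. Ttr, the transthyretin of choroid plexus, was lowest in saline 18 (20.9 CPM) and highest in Aducanumab 58 (4608 CPM), so both extremes were on the high side. Tcf7l2, a thalamic transcription factor, was at 28.4 CPM in Aducanumab 50 and at 3.64 to 6.33 CPM in the other 12 libraries.

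Of the 22060 genes, 324 were higher in the high libraries (1.47%), meaning that each of the 4 high libraries lay above each of the 4 low ones and that the difference of mean log2(CPM + 1) was at least 0.32. Only 32 were lower by the same rule (0.145%). Most differences were modest: the median over the 324 genes was 0.48 (1.39-fold), 94 reached 1.5-fold and 7 reached 2-fold. Over all 22060 genes the median difference was 0.0065, with 11696 genes above and 10364 below 0. For 304 of the 324 genes the mean of the 5 middle libraries lay between the means of the sides. The rule favours this, since it takes genes whose sides are already apart, and the share over all genes was not computed. Folds on this scale understate the change of genes with few counts. A ribosomal RNA separated the sides in the other direction. Rn18s-rs5, an 18S ribosomal RNA gene whose RNA carries no poly(A) tail and can be carried over in poly(A) selection, was at 508, 331, 414 and 442 CPM in saline 38, saline 32, Aducanumab 58 and saline 18. In Aducanumab 50, Aducanumab 56, ACLP-NT 53 and ACLP-NT 27 it was at 604, 688, 570.2 and 713 CPM, so the low side was higher without overlap, by 0.61 on the log2 scale. The middle libraries ran from 353 to 623 CPM, and the part of this in the differences between the sides was not tested.

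The genes higher carried immune labels. In the deposited table's own gene ontology columns, 55 of the 324 (17.0%) carried the label immune system process, against 2.01% of all genes tested. The label inflammatory response was on 12.7% against 1.31%, chemotaxis on 4.94% against 0.390%, defense response to virus on 5.86% against 0.830% and lysosome on 7.41% against 1.84%. Synapse was on 2.16% against 3.96%, and neuron projection was on 0 of the 324 against 1.56%. These labels were picked after the genes were seen, and the shares are a description.

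Effector genes of disease-associated microglia came out high as a group: all 38 members other than the ranking genes had a difference above 0, and 17 met the rule. Their median difference was 0.49 (1.40-fold), and it was 0.41 within Aducanumab and 0.41 within ACLP-NT. Lyz2, the lysozyme of macrophages, was at 67.2, 67.7, 72.7 and 51.8 CPM in saline 38, saline 32, Aducanumab 58 and saline 18, and at 39.4, 38.4, 27.3 and 27.3 CPM in Aducanumab 50, Aducanumab 56, ACLP-NT 53 and ACLP-NT 27. The 2 ACLP-NT libraries were the lowest, the sides did not overlap, and the difference was 0.96 (1.95-fold). Lilrb4a, an inhibitory receptor of myeloid cells whose reads may be shared with a close paralog, was at 12.4 to 17.5 CPM against 5.05 to 7.90 CPM, a difference of 1.03 (2.04-fold). Saline 32 was the highest library and ACLP-NT 27 the lowest. Hpse, heparanase, which cleaves heparan sulfate, was at 2.28 to 4.17 CPM against 1.08 to 1.99 CPM.

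Lysosomal effectors separated the sides as well. Cd68, a membrane protein of macrophage late endosomes, was at 46.1, 48.1, 40.9 and 39.5 CPM on the high side and at 31.5, 27.4, 22.6 and 23.1 CPM on the low side, a difference of 0.73 (1.66-fold). Ctsd, the aspartic protease cathepsin D, was at 1513, 1393, 1313 and 1203 CPM against 864, 961, 889 and 740.1 CPM, 0.65 higher. Ctsz, the carboxypeptidase cathepsin Z, was at 103 to 130 CPM against 61.0 to 77.6 CPM. Each of these genes separated the sides without overlap. Cd9, a tetraspanin, did so narrowly, since saline 18 lay just above ACLP-NT 53 at 99.1 CPM. Cd52, a surface glycopeptide of leukocytes, differed by 0.74. Cd84, a homophilic receptor of the SLAM family that the list does not hold, differed by 0.80. Some well-known effectors overlapped between the sides. Spp1, osteopontin, was at 48.6 CPM in Aducanumab 58 and at 13.3 to 16.4 CPM in the other 3 high libraries, against 9.34 to 25.3 CPM on the low side. Gpnmb, a transmembrane glycoprotein of macrophages, was at 13.2 to 21.6 against 8.36 to 13.7 CPM, and Lpl, lipoprotein lipase, at 49.8 to 65.0 against 42.0 to 51.7 CPM.

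The signalling chain below TREM2 was also higher. Of 16 partner genes, 15 had a difference above 0 and 11 met the rule, with a median of 0.42, 0.32 within Aducanumab and 0.39 within ACLP-NT. Pik3ap1, an adaptor that brings phosphoinositide 3-kinase to immune receptors, was at 14.3, 14.0, 14.2 and 10.1 CPM on the high side and at 9.09, 7.22, 6.90 and 7.33 CPM on the low side, a difference of 0.71 (1.63-fold). Saline 18 and Aducanumab 50 came closest to each other. Fcer1g, an activating adaptor that works like TYROBP, was at 18.4 to 22.3 CPM against 10.7 to 16.3 CPM. Vav1, the exchange factor whose promoter is printed above, was at 11.3 to 13.9 CPM against 7.90 to 8.69 CPM, with a low side confined to a narrow band. Spi1, which encodes PU.1 itself, was at 11.1, 10.2, 10.4 and 9.75 CPM against 8.12, 7.40, 7.10 and 5.84 CPM, a difference of 0.49 (1.41-fold). Syk, Btk, Blnk, Inpp5d, Cd33 and Abi3 also met the rule.

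Homeostatic genes, which mark resting microglia, were not lower where effectors were higher. Of 21 members, 19 had a difference above 0, 11 were higher by the rule and none was lower. Their median was 0.37, 0.30 within Aducanumab and 0.24 within ACLP-NT. Csf1r, the receptor for the survival factor of microglia, was at 251, 257, 221 and 230.0 CPM against 190.0, 196, 170 and 163 CPM, a difference of 0.42 (1.33-fold). The sides did not overlap. P2ry12, the ADP receptor of resting microglia, was at 80.8, 77.0, 59.8 and 69.0 CPM against 56.9, 53.9, 55.0 and 54.3 CPM, 0.37 higher, with Aducanumab 58 close to the low side. Fcrl2 in the table's naming, an Fc receptor-like gene, was 0.69 higher, and Gpr34, a lysophospholipid receptor, 0.59 higher. Siglech, a sialic acid-binding lectin of microglia, was at 31.0 to 36.8 CPM against 21.6 to 24.4 CPM. Tmem119, a membrane protein largely particular to microglia in the brain, did not meet the rule: it was at 30.1 to 36.6 CPM against 28.1 to 30.4 CPM.

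The balance of both lists was computed per library as the effector score minus the homeostatic score, where a score is the mean of the members' log2(CPM + 1) after subtraction of each gene's mean over the 13 libraries. It was 0.075, 0.015, 0.18 and 0.032 in saline 38, saline 32, Aducanumab 58 and saline 18, and 0.019, 0.0036, -0.11 and -0.16 in Aducanumab 50, Aducanumab 56, ACLP-NT 53 and ACLP-NT 27. The sides overlapped, since Aducanumab 50 lay above saline 32. The effector score alone ran from 0.076 to 0.30 on the high and from -0.42 to -0.13 on the low side, and the homeostatic score from 0.043 to 0.23 and from -0.27 to -0.13.

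**Figure D2:**
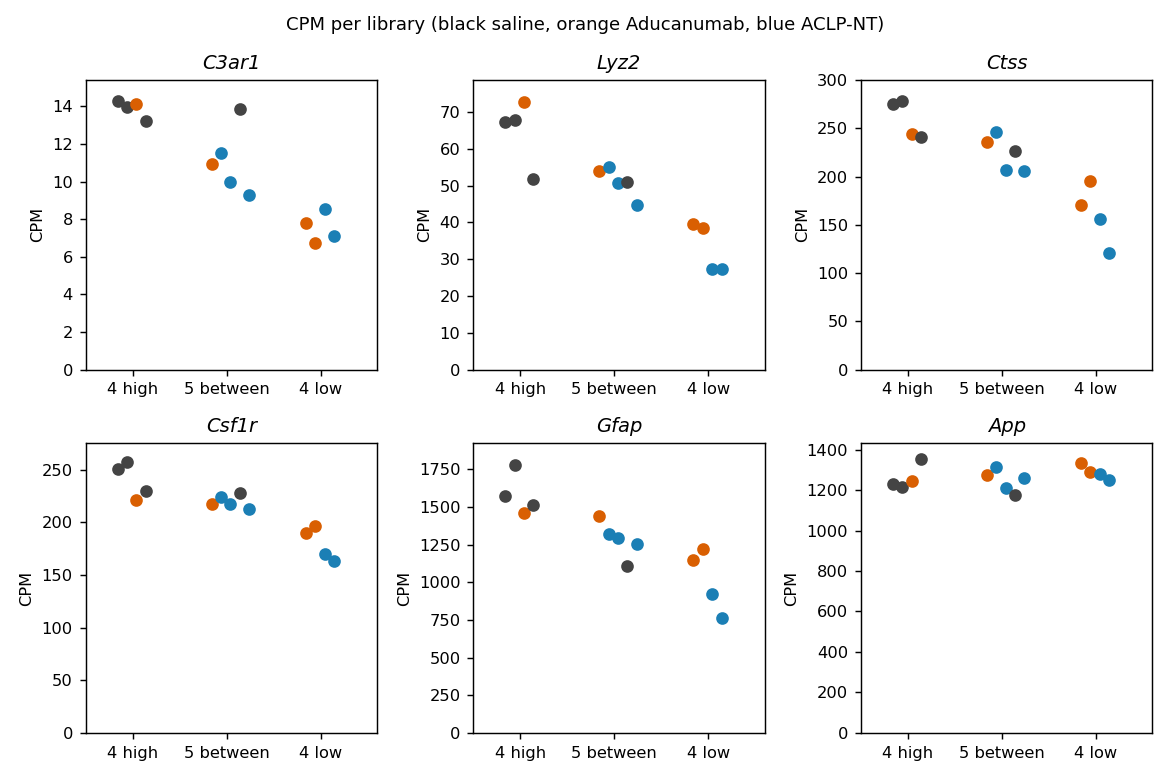
CPM of 6 genes in every library, grouped by side and coloured by treatment, on axes that start at 0. C3ar1, Lyz2, Ctss, Csf1r and Gfap are lower on the low side without overlap of the outer groups, and App overlaps.

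Complement and Fc receptor genes, through which opsonised material is recognised, had the highest median of the microglial lists, 0.60 (1.51-fold), with 17 of 18 members above 0 and 9 meeting the rule. Within Aducanumab it was 0.44 and within ACLP-NT 0.37. C3ar1, the receptor for the complement fragment C3a, was at 14.3, 14.0, 14.1 and 13.2 CPM on the high side and at 7.77, 6.72, 8.52 and 7.09 CPM on the low side, a difference of 0.81 (1.75-fold). Each side was tight, and saline 19 in the middle, at 13.9 CPM, reached the high range. Fcgr2b, the inhibitory IgG receptor, was at 21.5 to 24.5 CPM against 9.67 to 14.1 CPM, 0.92 higher, with reads that related Fc receptors may share. C1qa, a chain of the C1q initiator of the classical pathway, was at 126 to 153 CPM against 73.2 to 99.3 CPM, and C1qb and C1qc also met the rule. C4b, the next component of that pathway, which astrocytes also make, was at 334, 365, 349 and 336 CPM against 240.2, 290, 171 and 133 CPM. The low side spread more than the high side here, and reads may be shared with a near copy of the gene.

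Lysosomal genes were higher by less. Of 49 enzymes and membrane proteins, 45 had a difference above 0 and 11 met the rule, with a median of 0.15 (1.11-fold), 0.22 within Aducanumab and 0.10 within ACLP-NT. Several of the members that met the rule are expressed in the brain mainly by microglia. Ctss was at 275, 278, 244 and 241 CPM against 170, 196, 156 and 121 CPM, a difference of 0.71 (1.63-fold). Slc11a1, a metal transporter of phagosomes, was at 17.0 to 20.1 against 7.93 to 13.1 CPM, and Laptm5, a lysosomal membrane protein of blood-derived lineages, at 130 to 140.3 against 73.9 to 104 CPM. Neither gene overlapped between the sides. Grn, progranulin, a lysosomal growth factor mutated in frontotemporal dementia, was at 145, 139, 115 and 132 CPM against 92.6, 98.3, 96.5 and 93.6 CPM, 0.47 higher. Of 25 genes in the list of phagocytic and scavenger receptors, which is not confined to such receptors, 22 passed the filter. Of these, 3 met the rule (Pros1, Itgb5 and Itgal), and Pros1 encodes a secreted protein. Axl, counted among the effectors, met it too. The median of the 22 was 0.10. It was 0.027 without Aducanumab 58, 0.18 without saline 32 or without saline 18, and 0.17 without ACLP-NT 53. Within Aducanumab it was 0.30, and within ACLP-NT it was -0.0089, with 10 of 22 above 0. For 19 of 20 lipid handling genes that passed, the median was 0.099, and 1, Apobr, met the rule. Apoe, which the list does not hold, also met it, at 1682 to 2227 against 1462 to 1658 CPM, 0.33 higher. Without saline 18 the lipid handling median was 0.17, and without ACLP-NT 53 0.15. Within Aducanumab it was 0.26, and within ACLP-NT 0.096. For 20 cholesterol synthesis genes it was 0.041 and none met the rule, with values from 0.017 without saline 18 to 0.099 without Aducanumab 58. Within Aducanumab it was -0.21, with 1 of 20 above 0, and after subtraction of treatment means -0.027.

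Interferon-stimulated genes were higher in nearly the same measure as the effectors, but unevenly across libraries. All 36 members had a difference above 0, 11 met the rule, and the median was 0.49 (1.40-fold), 0.42 within Aducanumab and 0.50 within ACLP-NT. Oas1a was at 4.76, 4.62, 4.14 and 2.75 CPM against 2.29, 2.42, 1.249 and 1.28 CPM, a difference of 0.86 (1.81-fold). Saline 18 was the lowest of the high libraries. Ifit1 was at 8.78, 5.97, 9.05 and 5.70 CPM against 3.87, 4.42, 3.63 and 4.19 CPM, and the highest of all 13 libraries was ACLP-NT 49, a middle library, at 10.4 CPM. The list score ran from -0.13 to 0.38 on the high and from -0.52 to -0.12 on the low side, so the scores overlapped, by saline 18. Oasl2, an antiviral relative of Oas1a, was at 13.9 to 22.3 CPM against 6.68 to 12.54 CPM, and ACLP-NT 49 again lay above all others at 24.9 CPM. Outside the list, Ifi207 and Ifi209, members of a DNA-sensor family with close copies, were 0.92 and 0.81 higher. Usp18, a brake on interferon signalling, differed by 0.73 and overlapped. Cxcl10, a chemokine induced by interferon, was at 2.38 to 5.51 CPM against 1.12 to 2.64 CPM and overlapped.

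Antigen presentation separated into parts. All 17 class I and immunoproteasome genes had a difference above 0, with a median of 0.35, and 3 met the rule. B2m, the light chain of class I molecules, was at 240.2, 233, 224 and 188 CPM against 146, 176, 169 and 113 CPM, 0.56 higher, whereas H2-D1, a class I heavy chain of a gene family that shares reads, overlapped. All 8 listed class II genes had a difference above 0 with a median of 0.51, but among them only H2-Oa met the rule. H2-Ob, a class II gene outside the list, also met it, at 3.14 to 3.78 against 1.417 to 2.075 CPM, 0.69 higher. Cd74, the class II invariant chain, was at 24.2, 20.01, 38.6 and 16.7 CPM against 13.3, 20.7, 20.8 and 7.77 CPM. Aducanumab 58 and ACLP-NT 27 were the extremes, and the class II median was 0.27 without Aducanumab 58 and 0.32 without ACLP-NT 27. Within Aducanumab it was 0.85, and within ACLP-NT it was -0.062, with 3 of 8 above 0. The 15 markers of border-associated macrophages, which carry class II outside the parenchyma, summed to 160 to 296 CPM in the high and to 166 to 229 CPM in the low libraries, so the high side held the lowest and the highest of these sums. Their score was highest in Aducanumab 58, at 0.66, and their median of 0.18 was 0.0066 without that library, 0.28 without saline 18 and 0.100 without saline 38. It was 0.60 within Aducanumab and -0.12 within ACLP-NT, and no marker was at 0 in all libraries. Their part in the result was not tested.

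Among cytokine and pattern-recognition genes, 6 of 26 chemokines and cytokines that passed the filter met the rule (median 0.31), and 4 of 19 Toll-like receptor and NF-kappa-B genes (median 0.26). Within Aducanumab these medians were 0.28 and 0.37, and within ACLP-NT 0.18 and 0.21. Tlr13, an endosomal sensor of bacterial ribosomal RNA in mice, was at 8.26 to 11.3 CPM against 3.93 to 6.10 CPM, 0.83 higher. Ly86, a partner of a Toll-like receptor relative, was at 30.1 to 38.6 CPM against 16.9 to 24.3 CPM. Tlr2, a receptor for bacterial lipoproteins, overlapped, since saline 18 at 7.62 CPM lay below Aducanumab 56 at 8.02 CPM. Outside the lists, Cxcl5, a chemokine that attracts neutrophils, was 1.11 higher (2.57 to 5.77 against 0.746 to 1.35 CPM), although ACLP-NT 49 in the middle had 5.61 CPM. Il1a, the cytokine interleukin 1 alpha, was at 1.44 to 2.30 CPM against 0.574 to 1.17 CPM. Slc15a3, a peptide transporter of endolysosomes, was 0.88 higher, and Hvcn1, the voltage-gated proton channel of phagocytes, 0.82 higher.

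**Figure D3:**
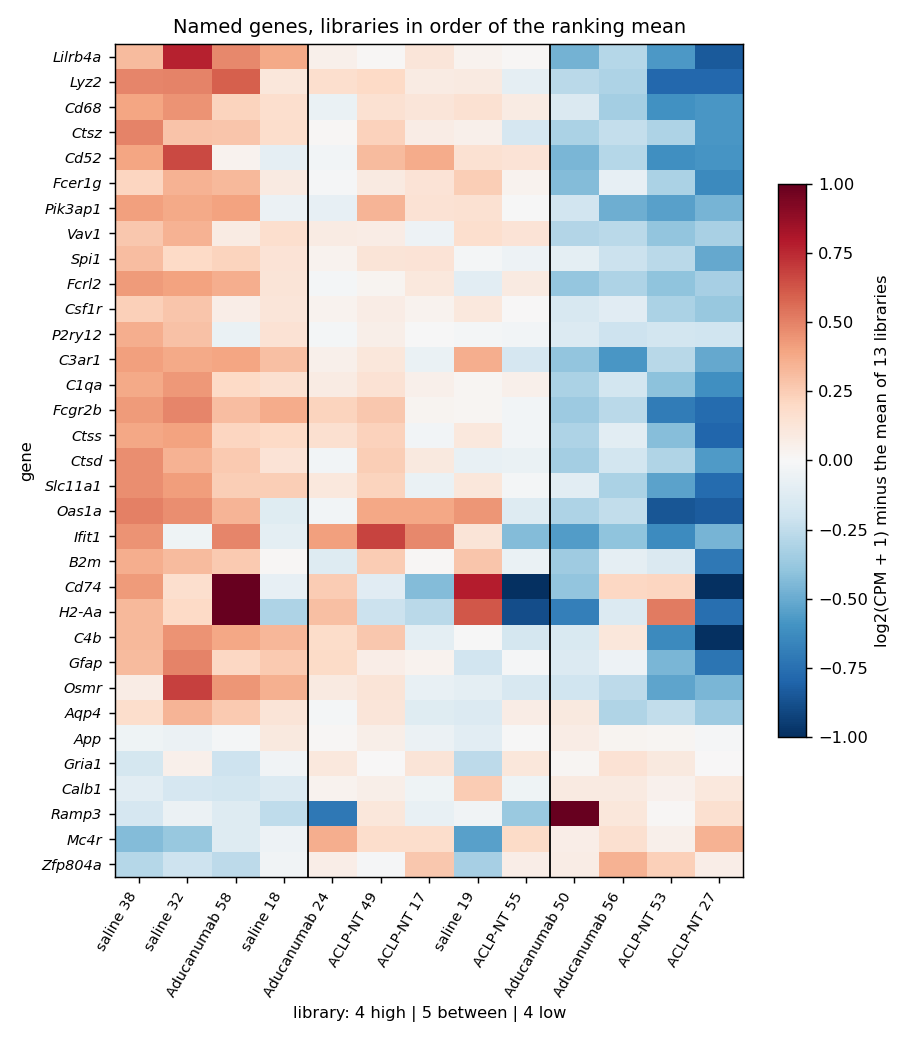
log2(CPM + 1) minus its 13-library mean for 33 genes in the 13 libraries, in falling order of the ranking mean, with lines at the borders of the sides. Microglial rows run from red to blue from left to right, the class II genes Cd74 and H2-Aa depart from that order, and App and Calb1 stay near 0.

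Reactive astrocyte genes were higher as well. Of 31 members that passed the filter, 28 had a difference above 0 and 7 met the rule, with a median of 0.36, 0.50 within Aducanumab and 0.21 within ACLP-NT. Gfap, the intermediate filament of reactive astrocytes, was at 1574, 1781, 1460 and 1510 CPM against 1150, 1219, 921 and 761 CPM, a difference of 0.66 (1.58-fold). The sides did not overlap, but saline 19 in the middle, at 1108 CPM, lay within the low range. Osmr, the oncostatin M receptor, was at 19.0 to 29.5 CPM against 12.2 to 15.6 CPM, and Aspg, an asparaginase, was 0.68 higher. The list scores overlapped, with saline 18 at -0.11. Genes of astrocyte transport and homeostasis had a median of 0.093 over 20 members, 0.021 without Aducanumab 58 and 0.059 without Aducanumab 56. Within Aducanumab that median was 0.25, and within ACLP-NT it was -0.017, with 9 of 20 above 0. Aqp4, the water channel of astrocyte endfeet, was the only one to meet the rule, at 256 to 296 CPM against 182 to 250 CPM.

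Among the listed genes of neurons and the amyloid pathway none met the rule, though some neuronal genes were lower without overlap by less than its limit. Outside these lists some genes of neurons did meet it, among them Nts, higher, and Mc4r, lower, both given below. Of 24 genes of the amyloid precursor and its secretases none met the rule, and the median was 0.042. App was at 1229, 1213, 1247 and 1355 CPM against 1332, 1290, 1279 and 1251 CPM, so the sides overlapped. Whether reads of the human transgene were counted there was not tested. Of 23 neuronal markers 19 had a difference below 0, with a median of -0.068 and none meeting the rule. The neuronal median was -0.040 without Aducanumab 58 and -0.10 without saline 18. Within Aducanumab it was -0.24, and within ACLP-NT it was 0.048, with 16 of 23 above 0. After subtraction of treatment means it was -0.031. Genes of the dentate gyrus and CA fields had 21 of 21 differences below 0, with a median of -0.11 that was -0.17 without saline 32. That median was -0.035 within Aducanumab, -0.020 within ACLP-NT and -0.026 after subtraction of treatment means. Calb1 was at 110, 105, 104 and 107 CPM against 126, 125, 122 and 127 CPM, a difference of -0.23 that stayed under the limit of the rule. Grin2b, an NMDA receptor subunit, was at 334 to 411.2 CPM against 411.8 to 444 CPM, a difference of -0.17 without overlap. Gria1, an AMPA receptor subunit, was at 761 to 907 CPM against 880.2 to 972 CPM, and overlapped. Among immediate early genes none met the rule, and their median of -0.087 was -0.014 without Aducanumab 58. Bdnf, a growth factor of active neurons, was at 27.6, 36.1, 31.1 and 26.1 CPM against 31.9, 43.5, 42.1 and 38.0 CPM, and overlapped by saline 32.

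Other cell types and neighbouring tissue differed between libraries without following the sides. Choroid plexus markers summed to 96.0 to 5789 CPM in the high and 147 to 5528 CPM in the low libraries. All 20 had a difference below 0, with a median of -0.56, but the sign depended on single libraries: it was 0.12 without saline 32 and 0.13 without saline 18, and it was -1.39 without Aducanumab 50, -1.32 without Aducanumab 58 and -1.23 without saline 38. Within Aducanumab the choroid plexus median was 2.28, and within ACLP-NT it was -1. Meningeal fibroblast markers summed to 241 to 933 CPM against 374 to 521 CPM, with the top value in Aducanumab 58. Their median of 0.27 was 0.0072 without that library and 0.50 without saline 18. It was 1.51 within Aducanumab and -0.43 within ACLP-NT. Endothelium and pericyte markers summed to 617 to 1036 against 623 to 791 CPM (median 0.12, from 0.063 without Aducanumab 58 to 0.19 without saline 18). The endothelium and pericyte median was 0.60 within Aducanumab and -0.16 within ACLP-NT. Lymphocyte markers were barely detected, with 11 of 19 passing the filter and a sum of 4.42 to 6.06 against 3.67 to 4.87 CPM. Blood markers, 5 of 7 passing and chiefly hemoglobin genes of a family that shares reads, summed to 125 to 365 against 121 to 226 CPM. Their median of 0.13 was -0.21 without Aducanumab 58, 1.04 within Aducanumab and -0.52 within ACLP-NT. Their part in the differences was not tested. Without Aducanumab 58, the effector median was 0.44, and 362 genes were higher by the rule, 302 of them among the 324.

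Oligodendrocyte genes had a median of 0.12 over 22 members, which was -0.034 without ACLP-NT 27, 0.078 without Aducanumab 58, 0.19 without Aducanumab 50 and 0.21 without ACLP-NT 53. With 5 libraries a side it was 0.015. Trf, transferrin, was the only one to meet the rule. Of 20 genes of neurogenesis and proliferation, 2 were higher, Top2a and Mcm3, and 1 was lower, Draxin, an axon guidance protein. Cytosolic ribosomal protein genes lay slightly higher, 32 of 33 above 0 with a median of 0.094, and their scores did not overlap, at -0.041 to 0.14 against -0.12 to -0.053. Only Rps27 met the rule, at 14.7 to 25.0 CPM against 4.66 to 14.6 CPM, a gene with close copies. Nuclear genes of the respiratory chain had a median of -0.0062 and heat shock genes of 0.010, neither with a member meeting the rule. Without Aducanumab 58 these medians were 0.013 and -0.043.

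**Figure D4:**
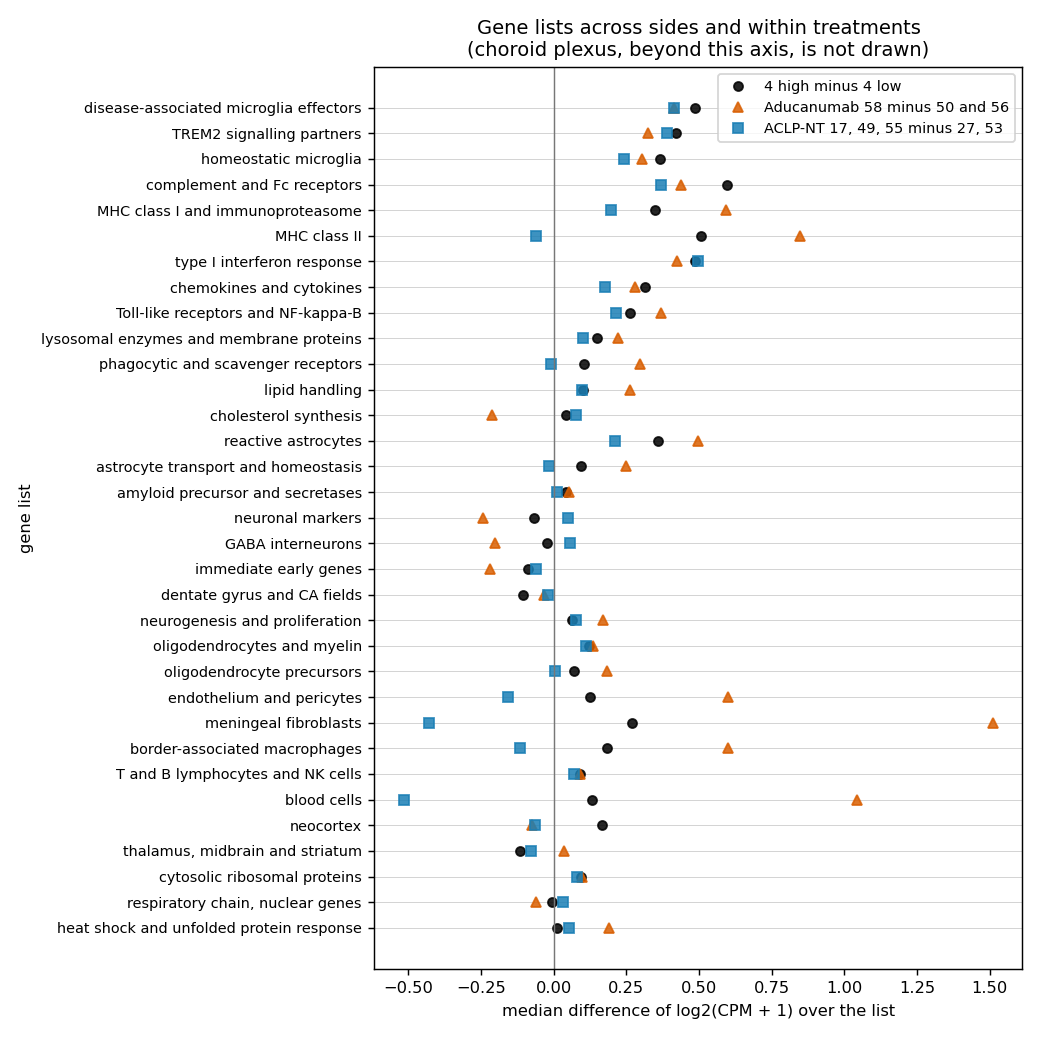
Median difference of log2(CPM + 1) over each gene list but choroid plexus, for the high minus the low libraries (black circles), Aducanumab 58 minus 50 and 56 (orange triangles) and ACLP-NT 17, 49 and 55 minus 27 and 53 (blue squares). Effectors, TREM2 partners, homeostatic, complement and interferon genes lie above 0 in all 3, while meningeal, endothelial and blood genes lie above 0 in Aducanumab and below 0 in ACLP-NT.

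Other genes with the largest differences were of mixed kinds. Evi2, a transcript that reads across its neighbours and that the table types as subject to nonsense-mediated decay, was at 2.29 to 3.99 CPM on the high side and at 1.82 and 1.81 CPM in Aducanumab 56 and ACLP-NT 53. It was at 0 in Aducanumab 50 and ACLP-NT 27, and also in ACLP-NT 55 of the middle, so its difference of 1.36 depends on the pseudocount. Nts, the peptide neurotensin, was at 3.03 to 5.22 against 0.279 to 2.99 CPM, and Asb10, of the SOCS box family, at 2.22 to 3.25 against 0.764 to 1.77 CPM.

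The genes lower in the high libraries were fewer and smaller in difference. Of the 32, 16 were protein coding, 2 reached 1.5-fold, and the median difference was -0.40. The 2, chosen for mention after their values were seen, were Gm55118, a predicted gene (14.4 to 19.6 against 25.0 to 32.7 CPM), and Rn18s-rs5. Ramp3, a partner of calcitonin-type receptors, was at 2.35, 2.61, 2.45 and 2.16 CPM on the high side and at 8.99, 3.07, 2.80 and 3.21 CPM on the low side. Aducanumab 50, the library with the high Tcf7l2, stood alone at the top. Mc4r, the melanocortin 4 receptor, was at 2.93 to 4.14 against 4.51 to 5.76 CPM, and Zfp804a, a zinc finger gene, at 18.1 to 21.7 against 23.4 to 28.6 CPM. In Mc4r and Zfp804a, the lowest of all 13 libraries was saline 19, a middle library, at 2.64 and 17.5 CPM. Depp1, an autophagy regulator, was at 1.17 to 1.74 against 2.19 to 2.80 CPM. Vps25, a subunit of the endosomal sorting complex, was at 15.2 to 20.6 against 22.2 to 25.9 CPM. In Vps25 the middle libraries ran from 16.7 to 31.7 CPM, and the highest of all 13 libraries was ACLP-NT 55, a middle library. Its difference within ACLP-NT was 0.13, opposite in sign to that of the sides.

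**Figure D5:**
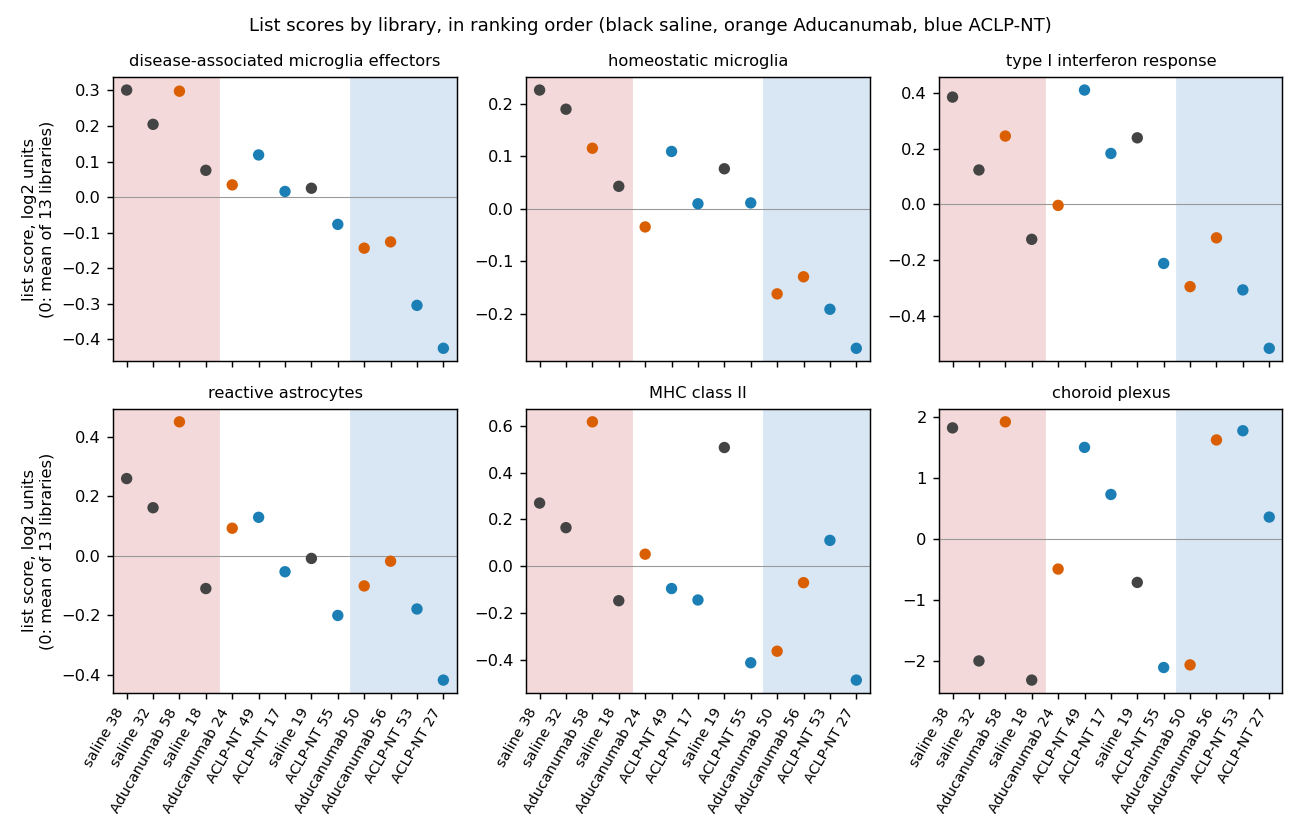
Scores of 6 gene lists (mean log2(CPM + 1) of the members, each gene centred on its 13-library mean) in every library, in ranking order, with the high side shaded red and the low side blue. Effector and homeostatic scores fall along the order, class II scores have high values in Aducanumab 58 and saline 19, and choroid plexus scores run from -2.3 to 1.9 with both ends on the high side.

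The treatments themselves, which the labels fix and the ranking did not choose, were compared by a test. With edgeR's quasi-likelihood F test over saline (n = 4), Aducanumab (n = 4) and ACLP-NT (n = 5), 0 of 22065 genes (0%) had a Benjamini-Hochberg adjusted p under 0.05, and the smallest adjusted p was 0.9986. An unadjusted p under 0.05 was found for 1007 genes. DESeq2's likelihood ratio test called 20 genes (0.0906%), of which 4 were among the 324: Ikzf1, Plxdc2, Grn and Gcnt1. Of the 324 genes higher in the high libraries, 96 had an unadjusted p under 0.05 by edgeR and 0 an adjusted one. Saline libraries were on the high side and not on the low one, so choosing genes by side favours small treatment p-values. These 96 genes and the 4 called by DESeq2 therefore cannot count as support. Grn had a DESeq2 adjusted p of 0.0247 and an edgeR unadjusted p of 0.00103, C3ar1 0.300 and 0.0154, and P2ry12 0.111 and 0.00235. The ACLP-NT libraries differed among themselves: C3ar1 was at 9.28 to 11.5 CPM in ACLP-NT 17, 49 and 55 and at 7.09 and 8.52 CPM in ACLP-NT 27 and 53.

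When each gene's treatment mean was subtracted before ranking, the sides became ACLP-NT 49, Aducanumab 58, ACLP-NT 17 and ACLP-NT 55 against ACLP-NT 27, ACLP-NT 53, saline 19 and Aducanumab 56. By the same rule 208 genes were then higher, 136 of them among the 324. The effector median was 0.38. The class II median was 0.047, that of reactive astrocytes was 0.22, and that of class I genes 0.20.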

How the data were processed

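Hippocampal poly(A) RNA was sequenced, per the labels' protocols, and 13 libraries were grouped by the treatment in the labels, 1 library per numbered animal. The deposited table holds raw counts and FPKM for 36287 genes. The deposited counts are raw and not normalized, and FPKM, per the file headers, are values the authors scaled to gene length and library total. Per the submitters' processing notes, the tools were HISAT2 2.0.4, StringTie 1.3.4d, cutadapt 1.9 and edgeR. The sources used here do not give the counter, its use of strand, the annotation or the build, so overlapping genes and close copies are uncertain.

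CPM is the count times 1000000 over the column sum, with a pseudocount of 1 on the log2 scale. Genes were filtered with filterByExpr over the 3 treatments. The ranking, its 5 genes, the gene lists and the rules were chosen with earlier results of these data known, and the sides are compared without p-values because the ranking read the same RNA. The library totals give each CPM a counting error that exceeds 10% only under a count of 100. Treatments were tested with edgeR 4.0.16 (R 4.3.3, glmQLFit, glmQLFTest, TMM, Benjamini-Hochberg, threshold 0.05), with DESeq2 1.42.0 as an alternative. The p-values measure the spread between these samples alone. Python 3.11.15 with pandas 2.3.3 made the other values. The treatment test was tried on simulated counts drawn from the real libraries' means. The rule for the sides was tried only on simulated log values with a common mean and a small spread, unlike the real libraries.

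Named genes are the 15 with the largest positive and the 15 with the largest negative difference among those without overlap and with a mean CPM of at least 1, of which 10 passed on the negative side, leaving out pseudogenes and predicted genes, and the 4 members of each list with the largest difference. Some genes the rule names are not given in the text. Cd9, Cd68, Cd84, Ctsd, Ctsz, P2ry12, Csf1r, Tmem119, Rn18s-rs5, Gm55118, Gfap, Aspg, App, Apoe, H2-Ob, Grn, Spp1, Lpl and Gpnmb were picked after values were seen. So were the other list members named without values, the ontology labels and the motifs. All 730 list symbols matched the table. Alternatives were TMM-scaled CPM, FPKM, another pseudocount, other filters, 3 or 5 libraries a side, a ranking without each gene, subtraction of treatment means and leaving out each library.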

Additional observations from a re-analysis of the deposited data

Results flagged for a closer look

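Each list score, and the ranking mean, was examined for a library far from the others of its treatment. Over 105 groups tested, chance alone would single out about 1 in 20, and 5 were found, each of them an Aducanumab library. Aducanumab 58, a high library, had a phagocytic and scavenger receptor score of 0.2226, while the other 3 Aducanumab libraries lay from -0.10 to -0.095. Its lipid handling score was 0.2062, against -0.075 to -0.053, and its heat shock and unfolded protein score was 0.1349, against -0.035 to -0.022. Its neuronal marker score was -0.1617, against 0.044 to 0.073. Aducanumab 50, a low library, had a GABA interneuron score of 0.1392, against -0.14 to -0.098 in the others.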

How the results depend on the processing

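Direction was examined for the 58 named genes that met the rule, not for the other calls. Leaving out a library, 3 a side, other filters, the other pseudocount and the rankings without 1 gene cannot turn it, since the sides do not overlap. In the settings that could, TMM, FPKM, 5 a side, treatment means subtracted and choroid plexus genes left out, 58 of 58 kept it. Their difference moved by at least the spread between libraries of a side in 24 of 58 with treatment means subtracted, 21 in FPKM, 14 with the other pseudocount and 7 with 5 a side. The count of genes higher, 324, was 711 with 3 libraries a side, 125 with 5 a side (122 shared) and 208 after subtraction of treatment means. The count lower, 32, was 114 with a pseudocount of 0.25, 21 with a mean CPM of at least 1, 129 with 3 a side and 4 with 5 a side. The effector median, 0.49, was 0.33 in FPKM, where 217 genes were higher. Leaving out 1 library gave 335 (without ACLP-NT 27) to 545 (without saline 18) genes higher, 60 to 98 lower, and an effector median of 0.39 to 0.56. Fewer libraries a side make separation easier by construction. The ranking without any 1 of its genes chose the same 8 libraries. With the choroid plexus genes out of the library totals, an alternative chosen after seeing the data, 320 were higher and 33 lower. The treatment test called 20 genes with DESeq2 and 0 to 1 when a library was left out (1 without saline 32, 1 without ACLP-NT 49). The cause was not tested. No paired analysis was possible because no replicate number is shared between treatments. Genes with a mean count under 100, 7013 of those tested, carry the most counting error.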
